A study of Homo sapiens with 15 samples.

Results

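Transcripts of the neuregulin and ERBB receptor system were followed through the cardiac differentiation of H1 cells. The 7 genes were chosen by name: the ligand genes NRG1, NRG4 and HBEGF and the receptor genes EGFR, ERBB2, ERBB3 and ERBB4. All 7 were found among the 48777 genes of the deposited tables. The rule used no measured value, but earlier results of these data were known when the genes were chosen.

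H1 is an established human embryonic stem cell line. Bulk RNA-seq of total RNA was available for days 0, 4, 9, 11 and 20, with 3 libraries per day that the labels call biological replicates. The bulk methods list day 7 where the sample labels give day 9, and the labels were followed. All 5 groups came from the same line, with no genetic change and no treatment arm beside the protocol, so that day and culture medium cannot be told apart.

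The day 0 cells were undifferentiated cells in Nutristem medium. Their labels name the matrix of recombinant laminins LN-521 and LN-221, whereas the deposited sample table lists LN-521 alone for day 0. Day 4 cells had reached confluence on the combined matrix. According to the treatment protocol in the labels, CHIR99021, which activates Wnt signalling by inhibiting GSK3, was then given from day 4 in RPMI 1640 with B27 without insulin, and IWP2, which blocks the secretion of Wnt proteins, from day 7. The growth protocol in the same labels places CHIR99021 on days 1 and 3 and IWP2 on day 5, and whether the day 4 cells had received CHIR99021 is not stated. The day 9 and day 11 cells had passed through both steps. Day 20 cells had been kept in RPMI 1640 with CTS B-27 Supplement from day 11.

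Neuregulins and the other ligands of the epidermal growth factor (EGF) family are made as precursors, usually anchored in the membrane, and are released or presented to receptor tyrosine kinases on the same or a neighbouring cell. Ligand binding pairs the receptors. ERBB2 binds no ligand known for it and acts as a partner of the others, ERBB3 has a weak kinase and depends on its partner, and ERBB4 both binds neuregulins and has a full kinase. In the embryonic heart, neuregulin 1 from the endocardium acts on ERBB2 and ERBB4 of the myocardium and is required for trabeculation.

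In GENCODE v44 on GRCh38, NRG4 lies at chr15:75935969-76059795 and HBEGF at chr5:140332843-140346603, both on the minus strand. EGFR lies at chr7:55019017-55211628, ERBB2 at chr17:39687914-39730426 and ERBB3 at chr12:56076799-56103505, all on the plus strand, and ERBB4 at chr2:211375717-212538841 on the minus strand. Counts and TPM (transcript abundance per unit of gene length, scaled to the same total in each library) cover whole genes, so that exons, isoforms and UTRs were not resolved. The exons of NRG4 share 1918 bases with FBXO22 on the opposite strand, those of ERBB2 share 571 with MIEN1 and 144 with PGAP3, and those of EGFR share 186 with EGFR-AS1. The library kit keeps the strand, but whether featureCounts used it is not given in the sources used here. HBEGF and ERBB4 shared no exon base with another gene.

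Of the 7 genes, ERBB4, HBEGF and EGFR were called higher on day 20 than on day 0, as given with the tests, and 150 bases of each promoter are printed to show the DNA just upstream of these genes, which differed in the steps at which they moved. They run from 200 to 51 bases upstream of the RefSeq start in GRCh38.p14, in the direction of the gene. RefSeq promoters matched 5 of the 7 members. The windows lie at chr2:212538853-212539002 on the minus strand for ERBB4, chr5:140346654-140346803 on the minus strand for HBEGF and chr7:55018817-55018966 on the plus strand for EGFR. Capitals mark GGGCGG or its complement CCGCCC, the GC box, and overlapping matches were each counted.
ERBB4: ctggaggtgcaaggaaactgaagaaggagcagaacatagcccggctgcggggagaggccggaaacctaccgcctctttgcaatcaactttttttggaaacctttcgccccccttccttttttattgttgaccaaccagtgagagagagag
HBEGF: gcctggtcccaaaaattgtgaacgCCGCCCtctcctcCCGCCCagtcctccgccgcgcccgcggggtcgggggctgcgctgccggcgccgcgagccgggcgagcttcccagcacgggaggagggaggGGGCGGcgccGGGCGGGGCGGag
EGFR: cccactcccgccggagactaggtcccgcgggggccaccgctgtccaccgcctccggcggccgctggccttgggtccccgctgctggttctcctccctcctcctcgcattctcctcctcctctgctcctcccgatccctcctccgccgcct
HBEGF held 5 such matches, and ERBB4 and EGFR held 0. The GC box was present in 31.4% of the 35116 RefSeq promoter windows of this length. The letters TATAAA (5.4% of windows) and AGATAA (5.6%), searched on both strands, were in none of the 3 windows. Bases G and C made up 51.3% of the ERBB4 window, 79.3% of the HBEGF window and 73.3% of the EGFR window, against a median of 58.0% over all windows. A match is a description of the letters only.

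Library totals lay between 11990302 and 33469703 counts. Day 20 replicate 2 stood apart: its RNA integrity number was 6.1, against 8.8 to 10.0 in the others, and it had reads on 48230 genes, against 30886 to 39551. A set of 252 long genes was chosen as silent by their counts in the libraries before day 20. The low values of those libraries were fixed by this choice, so that only the day 20 libraries can be compared. Over these genes, day 20 replicate 2 carried a median of 7.19 reads per kb of exon, against 0.405 in day 20 replicate 3 and 0 in day 20 replicate 1. A single gene took 20.0% of TPM in day 0 replicate 3 and 17.0% in day 9 replicate 1, and 2.54% or less elsewhere. Reads mapped uniquely made up 35% in day 0 replicate 3 and 46% in day 9 replicate 1, against 57% to 86% elsewhere. Day 0 replicate 3 also had the lowest total. The 8 pluripotent cell markers (POU5F1, NANOG and others) summed to between 6705 and 9903 TPM on day 0 and between 109 and 141 TPM on day 20. The 8 cardiomyocyte markers (TNNT2, MYH6 and others) summed to between 19.8 and 29.5 TPM on day 0 and between 6063 and 25147 TPM on day 20. The 10 epithelial or endoderm markers, with AFP and APOA1, summed to 19342, 1412 and 22183 TPM in day 20 replicates 1 to 3 and to between 1456 and 1672 TPM on day 0, so that replicate 2 was below every day 0 library.

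**Figure D1:**
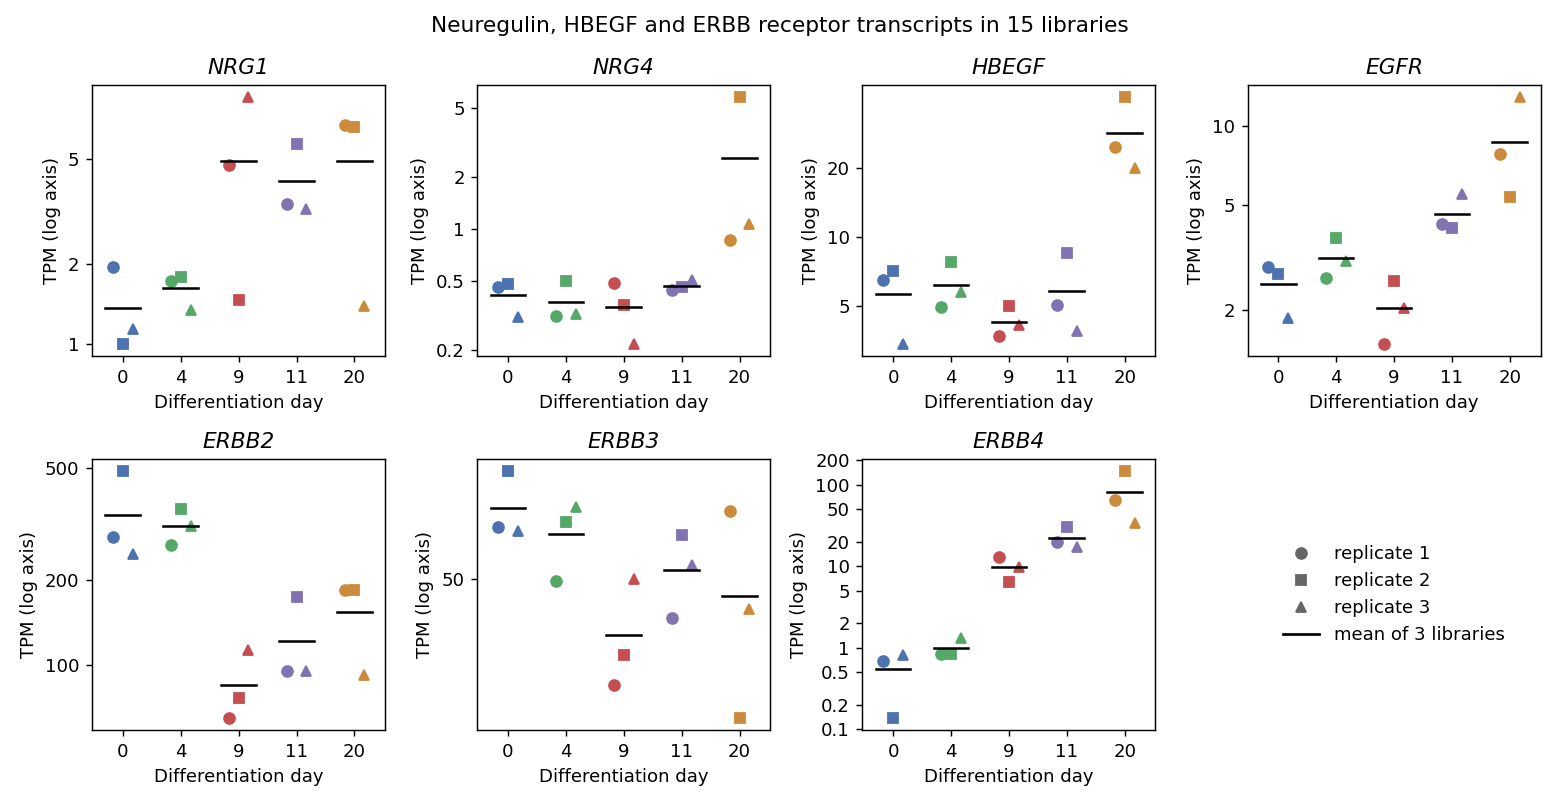
Level of each of the 7 genes in TPM (log axis) by differentiation day, with 1 point per library and the mean of 3 libraries as a bar. ERBB4 climbs from a mean of 0.549 TPM on day 0 to 82.3 TPM on day 20, while ERBB2 is highest on days 0 and 4 and HBEGF stands apart only on day 20.

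NRG1 encodes the main neuregulin of the heart, which binds ERBB3 and ERBB4, and lies at chr8:31639222-32855666 on the plus strand. Its level was 1.95, 1.00 and 1.14 TPM in the 3 day 0 libraries and 1.73, 1.79 and 1.35 TPM on day 4. On day 9 it was 4.77, 1.47 and 8.58 TPM. The day 9 libraries thus disagreed, with replicates 1 and 3 above every earlier library and replicate 2 within the range of day 4. NRG1 was then 3.39, 5.73 and 3.24 TPM on day 11 and 6.71, 6.64 and 1.39 TPM on day 20. Day 11 lay wholly above days 0 and 4, and on day 20 replicate 3 was back at the level of the stem cells. In day 20 replicate 2, NRG1 carried 13.8 reads per kb of exon, beside the 7.19 reads per kb found there on silent genes, and the part of such reads in its level was not tested.

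NRG4 encodes a short neuregulin that binds ERBB4. From day 0 to day 11 its level was at most 0.508 TPM, resting on 6 to 20 counts per library, and the days overlapped. On day 20 it was 0.864, 5.78 and 1.07 TPM, from 27, 114 and 24 counts. All day 20 libraries were above all earlier ones, and replicate 2 stood far over the others. Its 22.7 reads per kb, against 7.19 on silent genes, came from the library with reads on nearly every gene, and the part of such reads was not tested.

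HBEGF encodes heparin-binding EGF-like growth factor, a ligand of EGFR and ERBB4. Its level was 6.50, 7.09 and 3.42 TPM on day 0, 4.96, 7.79 and 5.75 TPM on day 4 and 3.69, 5.03 and 4.12 TPM on day 9. These 3 days overlapped, and so did day 11 with 5.08, 8.55 and 3.92 TPM. On day 20 HBEGF was 24.7, 40.7 and 20.0 TPM. The lowest day 20 library was above the highest library of any earlier day. At 161 reads per kb in day 20 replicate 2, HBEGF was far over the 7.19 reads per kb of silent genes.

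EGFR encodes the receptor of EGF and of HBEGF. It was low throughout, at 2.91, 2.75 and 1.87 TPM on day 0, 2.64, 3.76 and 3.08 TPM on day 4 and 1.48, 2.58 and 2.04 TPM on day 9. Every day 9 library was below every day 4 library. EGFR was 4.26, 4.10 and 5.53 TPM on day 11 and 7.88, 5.37 and 12.9 TPM on day 20. Day 11 lay wholly above the 3 earlier days, and day 20 overlapped day 11 through replicate 2 only.

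ERBB2 encodes the partner receptor, and it was the most abundant of the 4 receptors per length in all 15 libraries. Its level was 285, 486 and 247 TPM on day 0 and 265, 358 and 311 TPM on day 4. On day 9 it was 64.9, 76.5 and 113 TPM, so that every day 9 library was below every library of days 0 and 4. ERBB2 was 95.1, 174 and 94.7 TPM on day 11 and 185, 185 and 92.2 TPM on day 20. These later days overlapped day 9 and each other, and all stayed under the lowest day 0 library.

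ERBB3 encodes the neuregulin receptor with the weak kinase. It was 64.4, 84.3 and 63.1 TPM on day 0, 49.7, 66.0 and 71.0 TPM on day 4 and 30.0, 34.7 and 49.97 TPM on day 9. Its day 11 values were 41.4, 62.0 and 53.5 TPM, and its day 20 values 69.4, 25.6 and 43.3 TPM. Neighbouring days overlapped at every step, and the lowest value of the series was that of day 20 replicate 2.

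ERBB4 encodes the neuregulin receptor that pairs with ERBB2 in heart muscle cells. It was 0.698, 0.138 and 0.811 TPM on day 0, from 63, 15 and 41 counts, and 0.844, 0.838 and 1.31 TPM on day 4. On day 9 it was 12.97, 6.49 and 9.91 TPM, and on day 11 19.7, 30.2 and 17.5 TPM. Day 20 gave 65.4, 147 and 34.1 TPM. In TPM each day lay wholly above the one before it, narrowly so for day 4. With counts scaled to the library total (CPM), days 0 and 4 overlapped. Day 0 replicate 3, where a single gene took 20.0% of TPM, was at 3.42 CPM. Day 4 replicates 1 and 2 were lower, at 2.86 and 2.84 CPM, and replicate 3 was higher, at 4.35 CPM. A rise from day 0 to day 4 was therefore not resolved, whereas the later steps were also separate in CPM. Day 20 replicate 2, the highest, carried 578 reads per kb against 7.19 on silent genes.

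Within a library the levels per length fell in a stable order among the receptors of the stem cells: ERBB2, ERBB3, EGFR and then ERBB4, in all 6 libraries of days 0 and 4. On days 9 and 11, ERBB4 stood between ERBB3 and EGFR in all 6 libraries. On day 20, ERBB4 was just behind ERBB3 in replicates 1 and 3 and ahead of it in replicate 2. Among the ligands, HBEGF was above NRG1 in 13 of 15 libraries, and NRG1 was higher in day 9 replicates 1 and 3.

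The change in the receptors can be put as shares of their summed TPM. ERBB2 made up 78.97 to 84.8% of the 4 receptors on day 0 and 80.5 to 83.5% on day 4, then 59.3 to 64.5% on day 9, 55.3 to 64.3% on day 11 and 50.5 to 56.4% on day 20. ERBB4 made up 0.024 to 0.259% on day 0, 0.196 to 0.338% on day 4, 5.40 to 11.9% on day 9, 10.2 to 12.3% on day 11 and 18.7 to 40.6% on day 20. In every day 20 library ERBB4 held a larger, and ERBB2 a smaller, share than in any library of days 0 and 4. The ratio of ERBB2 to ERBB4 in TPM was 305 or more in each day 0 library, 238 or more on day 4, and 2.82, 1.26 and 2.70 in day 20 replicates 1 to 3. Without day 20 replicate 2, ERBB4 made up 20.0 and 18.7% on day 20. With 3 libraries against 3 an exact permutation test could not give a p-value under 0.1, and the shares were not tested.

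**Figure D2:**
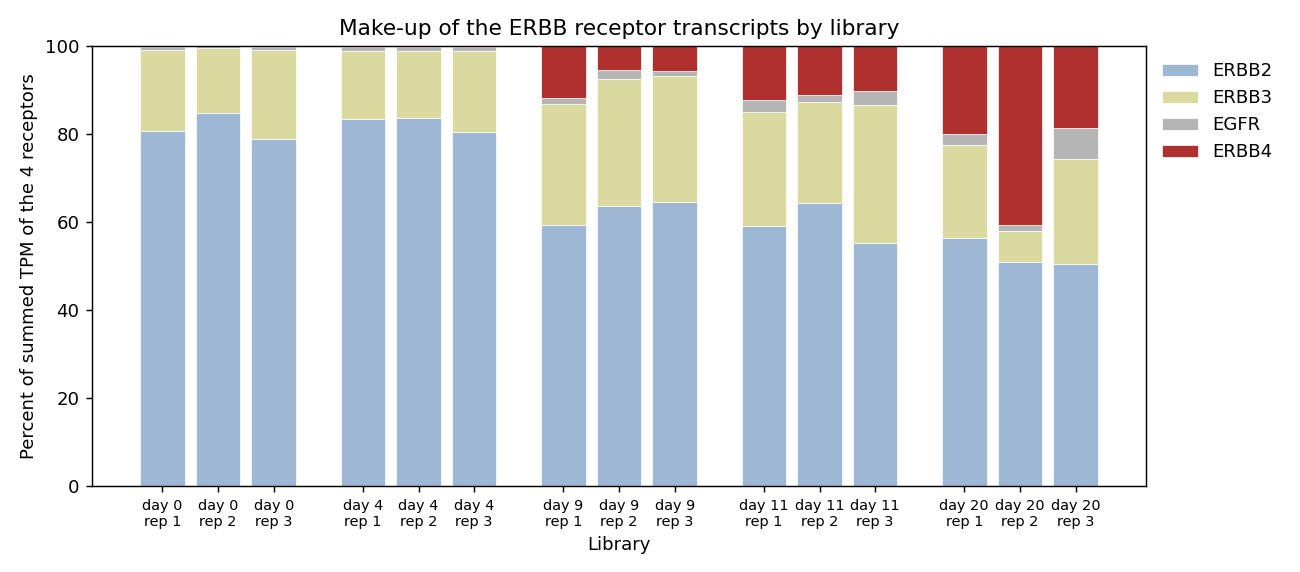
Share of each receptor in the summed TPM of EGFR, ERBB2, ERBB3 and ERBB4 (vertical axis, percent), with 1 bar per library and 3 libraries per day. ERBB4 is hardly visible on days 0 and 4 and makes up 18.7 to 40.6% on day 20.

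Each step was then tested with edgeR's quasi-likelihood test on the counts of the 6 libraries of the 2 days, and a gene was called at a Benjamini-Hochberg adjusted p under 0.05, with every tested gene in the adjustment. A change is given as the log2 fold change of normalised counts with its standard error (SE). All 7 genes passed the filter on low counts in each comparison. In bulk RNA, fewer cells of a type and less RNA per cell cannot be told apart.

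Over all 5 days in one test, 6 of the 7 genes differed between days, where 50.4% of the 24767 genes tested did. The adjusted p-value was 1.23e-06 for ERBB4, 2.93e-05 for HBEGF, 0.000298 for ERBB2, 0.00161 for EGFR, 0.00294 for NRG4 and 0.0457 for NRG1. ERBB3 did not pass, at 0.144 with all libraries, but did at 0.0289 without day 20 replicate 2 and at 0.0215 without day 20 replicate 1. The NRG1 call was lost without any single library of days 0, 4 or 11, without day 9 replicate 1 or 3 and without day 20 replicate 2, at adjusted p-values between 0.0523 and 0.113. It was also lost under upper-quartile scaling (0.0567), with no filter (0.0574) and with limma on log2(TPM + 1) (0.121) or log2(TPM + 0.1) (0.111). The NRG4 call was lost with limma on the same scales (0.0919 and 0.0586), and was at 0.0385 without day 20 replicate 2.

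Between day 0 and day 4, 0 of the 7 genes were called in either direction by edgeR, and 0% of the 20964 genes tested were called higher and 0% lower. At an unadjusted p-value under 0.05, 741 of all genes and 0 members differed, and DESeq2 also called 0. The members' fitted changes were small, from a log2 fold change of −0.26 (SE 0.17) for ERBB3 to 0.28 (SE 0.19) for EGFR, with ERBB4 at 0.81 (SE 0.58) on its few counts. Their adjusted p-values in edgeR lay between 0.885 and 0.963. The median over the 7 was 0.07, against −0.01 over all genes.

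Between day 4 and day 9, 5 of the 7 genes were called. Higher on day 9 were 2 of the 7, where 24.3% of 21252 genes were called higher, and lower were 3 of the 7, where 24.7% were. ERBB4 rose by 3.34 (SE 0.34) on the log2 scale, a 10.1-fold increase with an adjusted p of 0.000169 in edgeR. ERBB2 fell by 1.86 (SE 0.23), to 0.276 of its day 4 level, with an adjusted p of 0.000333. Both calls held under all 15 alternatives. The pluripotent markers summed to at least 7748 TPM on day 4 and at most 2440 TPM on day 9, and their part in the changes was not tested.

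The other 3 calls of this step were smaller. NRG1 rose by 1.66 (SE 0.57), a 3.16-fold change with an adjusted p of 0.0438 in edgeR, although the 2 days overlapped. EGFR fell by 0.62 (SE 0.21) with an adjusted p of 0.0385. ERBB3 fell by 0.68 (SE 0.22) with an adjusted p of 0.0324, and its days overlapped. Each of them depended on single libraries. The adjusted p of NRG1 was between 0.107 and 0.164 without any one library other than day 9 replicate 2, and 0.000244 without that one. The EGFR call was lost without day 4 replicate 2 (0.134) or 3 (0.0769) or day 9 replicate 1 (0.126) or 3 (0.0579), and that of ERBB3 without day 4 replicate 2 (0.0999) or 3 (0.103) or day 9 replicate 1 (0.105) or 2 (0.078). NRG4 at −0.10 (SE 0.42) and HBEGF at −0.51 (SE 0.23, adjusted p 0.0939) did not pass. The median of the 7 was −0.51, against 0.01 over all genes.

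**Figure D3:**
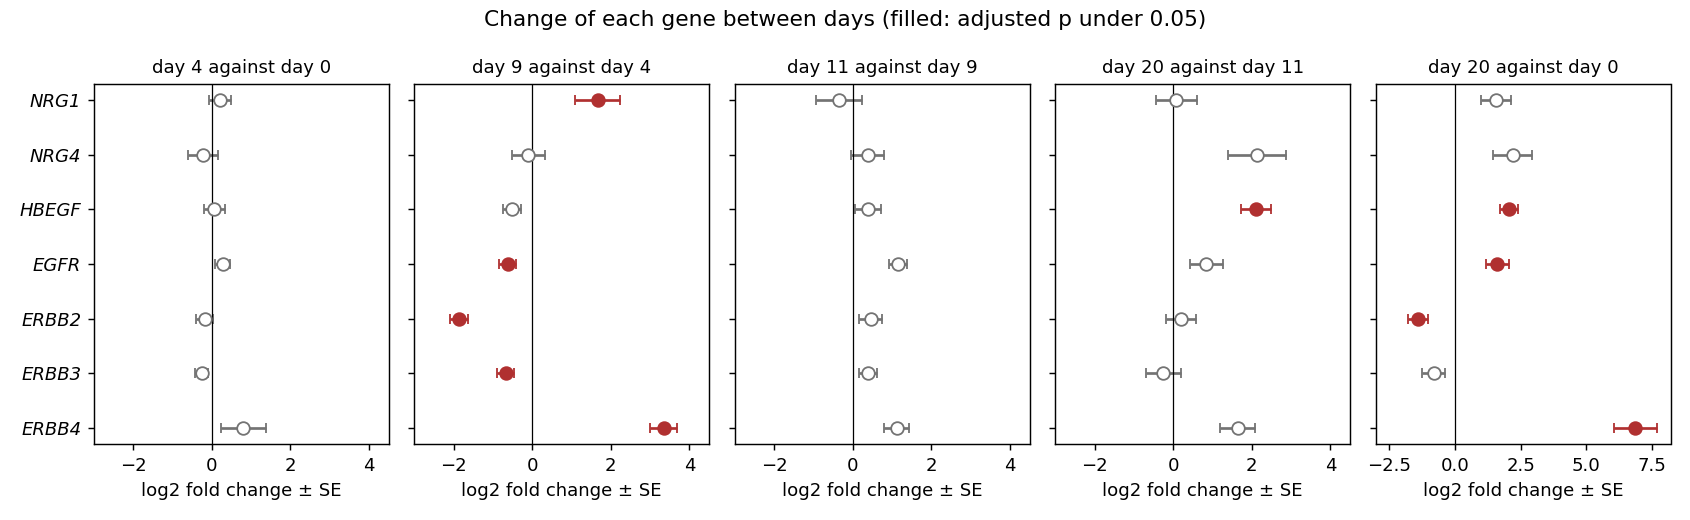
Log2 fold change of each gene in 5 comparisons of days (horizontal axis; the last panel has a wider range), with bars for 1 SE from edgeR and 6 libraries per comparison. Filled points passed an adjusted p of 0.05: 5 genes in day 9 against day 4, HBEGF in day 20 against day 11, and HBEGF, EGFR, ERBB2 and ERBB4 in day 20 against day 0.

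Between day 9 and day 11, the step of interest to the study because day 11 cells are its committed cardiac progenitors, 0 of the 7 genes were called by edgeR. Over 20679 genes, 1.39% were called higher and 1% lower on day 11. At an unadjusted p-value under 0.05, 2 members differed, EGFR and ERBB4, and 3517 of all genes did. DESeq2 called the same 2 members, among 1674 genes in all. EGFR had a log2 fold change of 1.15 (SE 0.23) with an adjusted p of 0.0528, and ERBB4 one of 1.11 (SE 0.33) with an adjusted p of 0.136. For both genes every day 11 library was above every day 9 library, as described above for TPM. The cardiomyocyte markers summed to between 444 and 1678 TPM on day 9 and between 5364 and 23263 TPM on day 11, and their part was not tested. NRG1 at −0.35 (SE 0.59), NRG4 at 0.38 (SE 0.42), HBEGF at 0.39 (SE 0.32), ERBB2 at 0.46 (SE 0.30) and ERBB3 at 0.40 (SE 0.23) had adjusted p-values of 0.445 or more.

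Between day 11 and day 20, HBEGF was the 1 gene of the 7 called higher, where 1.12% of 21398 genes were, and 0 members were lower, where 0.435% were. HBEGF rose by 2.11 (SE 0.37) on the log2 scale, a 4.31-fold change with an adjusted p of 0.0399 in edgeR. That call sat close to the threshold. It was lost without day 11 replicate 1 (0.246), 2 (0.0937) or 3 (0.174) and without day 20 replicate 1 (0.0566) or 2 (0.053), and under upper-quartile scaling (0.0621) and library size alone (0.068), while the fitted change stayed between 1.88 and 2.42. Both scalings also moved the median of all genes, by 0.11 and 0.07 on the log2 scale.

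ERBB4 had a log2 fold change of 1.64 (SE 0.44) from day 11 to day 20, with an adjusted p of 0.113 in edgeR, and 1.16 (adjusted p 0.122) without day 20 replicate 2. NRG4 had one of 2.14 (SE 0.74, adjusted p 0.198), and 1.04 (adjusted p 0.234) without that library. DESeq2 called both of them beside HBEGF, among 1871 genes in all. EGFR at 0.84 (SE 0.42), ERBB2 at 0.20 (SE 0.38), ERBB3 at −0.25 (SE 0.44) and NRG1 at 0.08 (SE 0.53) did not pass, with adjusted p-values of 0.374 or more. ERBB3 turned to 0.11 and NRG1 to −0.02 without day 20 replicate 2.

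From day 0 to day 20, the net change of the series, 3 of the 7 genes were called higher, where 16.1% of 21988 genes were, and 1 was called lower, where 11.3% were. ERBB4 rose by 6.87 (SE 0.81) on the log2 scale, 117-fold, with an adjusted p of 0.00108 in edgeR. Without day 20 replicate 2 its change was 6.42 (adjusted p 0.00101), and without day 0 replicate 2, where it had 15 counts, 6.31 (adjusted p 0.00671). HBEGF rose by 2.05 (SE 0.34), 4.13-fold, with an adjusted p of 0.00394, and 1.88 (adjusted p 0.00445) without day 20 replicate 2. These 2 calls held under all 14 alternatives.

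EGFR rose by 1.62 (SE 0.43) from day 0 to day 20, 3.08-fold, with an adjusted p of 0.0256 in edgeR. ERBB2 fell by 1.41 (SE 0.39), to 0.377 of its day 0 level, with an adjusted p of 0.0297. The EGFR call was lost without day 0 replicate 1 (0.0968), 2 (0.0966) or 3 (0.139) or day 20 replicate 3 (0.0906), where EGFR was highest. The ERBB2 call was lost without day 0 replicate 1 (0.0617), 2 (0.115) or 3 (0.0817) or day 20 replicate 3 (0.0777). NRG1 at 1.57 (SE 0.57, adjusted p 0.0731), NRG4 at 2.20 (SE 0.75, adjusted p 0.0602) and ERBB3 at −0.81 (SE 0.44, adjusted p 0.214) did not pass. NRG1 passed without day 20 replicate 3 (0.0142) and NRG4 without day 20 replicate 1 (0.0389), whereas NRG4 had a change of 1.10 without replicate 2. DESeq2 called 6 members in this comparison, NRG1 (adjusted p 0.0250) and NRG4 (0.0163) among them, and 7441 of all genes.

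Markers of several cell types differed between the day 20 libraries beside these genes. The cardiomyocyte markers summed to 23879, 25147 and 6063 TPM in day 20 replicates 1 to 3, all 8 of 8 at 1 TPM or more, and ERBB4, ERBB2, HBEGF and NRG1 were lowest in replicate 3 as well. The 8 fibroblast or mesenchymal markers summed to 3211, 1219 and 24486 TPM, in the same order of libraries as EGFR. The 10 epithelial or endoderm markers, at 19342, 1412 and 22183 TPM, had this order too. Both lists also ranked the libraries of days 9 and 11 as EGFR did. The 8 endothelial or endocardial markers, which mark the cells that make neuregulin 1 in the heart, summed to 50.4, 56.7 and 164 TPM. TEK, a receptor of angiopoietins that was also at 44.6 to 94.3 TPM on day 0, made up 15.9, 16.8 and 141 TPM of these sums. The other 7 markers, summed after the values were seen, came to 34.5, 39.9 and 23.1 TPM. Leaving TEK out thus turned replicate 3 from the highest sum to the lowest. Of the defining genes, PECAM1 was 2.70, 4.17 and 2.26 TPM and CDH5 8.04, 5.89 and 3.35 TPM. Of the 8 neural or neural crest markers, SOX10 had no row in the tables, and the other 7 summed to 5.80, 28.3 and 9.13 TPM. On day 11 the cardiomyocyte markers ranked the libraries as ERBB4 did. On day 9 they did not: replicate 2 had the most cardiomyocyte transcripts (1678 TPM) and the lowest ERBB4 (6.49 TPM). The part of each cell type in the members' levels was not tested.

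**Figure D4:**
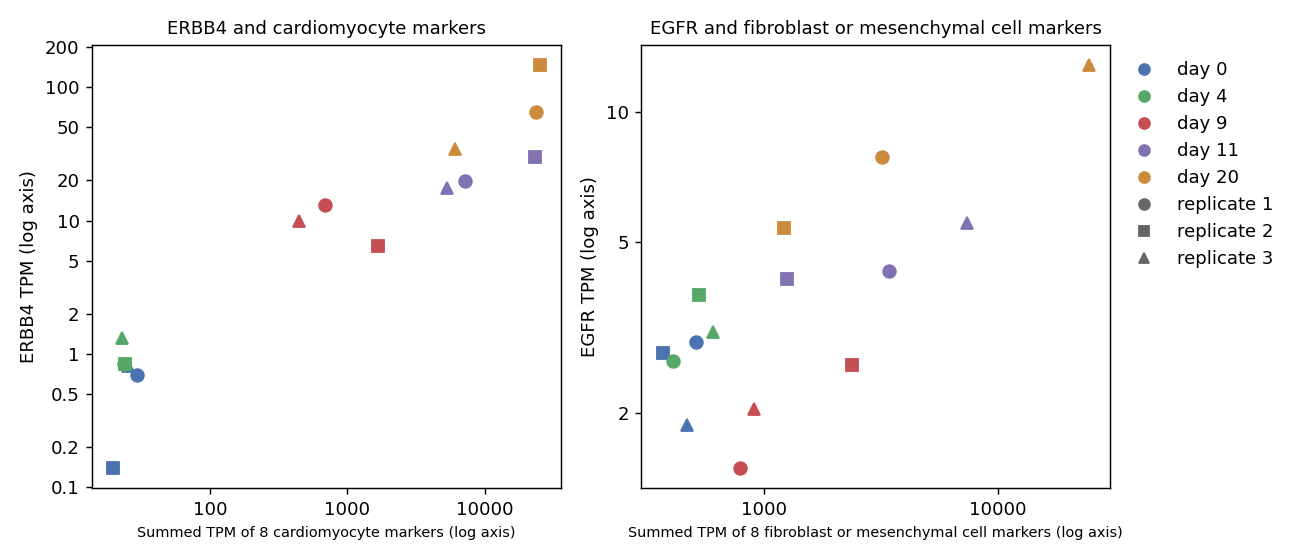
Left, ERBB4 in TPM against the summed TPM of 8 cardiomyocyte markers; right, EGFR against 8 fibroblast or mesenchymal markers; both axes are log axes and each point is 1 of 15 libraries, coloured by day. On day 20, replicate 3 has the fewest cardiomyocyte transcripts (6063 TPM) with the lowest ERBB4 (34.1 TPM) and the most fibroblast transcripts (24486 TPM) with the highest EGFR (12.9 TPM). On day 9, replicate 2 has the most cardiomyocyte transcripts (1678 TPM) with the lowest ERBB4 (6.49 TPM). The epithelial or endoderm markers, not drawn, also rank the day 20 libraries as EGFR does.

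The genes whose profile over the 15 libraries was most like that of a member were found by Pearson's r of log2 CPM among 12198 protein-coding genes. The libraries share their days, so that these are descriptions. ERBB4 was most like TMOD1, a capping protein of actin filaments in muscle (r = 0.981), ADGRD1 (0.978) and TET2 (0.978). HBEGF was most like PDGFD, a platelet-derived growth factor (0.963), MTARC2 (0.951) and FBXO40 (0.950). For EGFR the nearest were CYTH3 (0.937), DAAM2 (0.933) and B2M (0.932), and for ERBB2 WDR44 (0.970), MFSD12 (0.968) and CLPTM1 (0.967). ERBB3 was nearest to TMBIM6 (0.950), HSPA5 (0.948) and ATP6V0B (0.941), NRG4 to FRMD3 (0.908), FBXO3 (0.903) and PLCH2 (0.901), and NRG1, with the weakest likeness, to ATAD2B (0.866), SC5D (0.862) and CLCN4 (0.859). Among the members themselves, ERBB4 ran against ERBB2 (r = −0.76) and NRG4 ran with HBEGF (r = 0.83).

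Of the 8 other ligands of the EGF family, EGF, TGFA, NRG2 and NRG3 were tested in each comparison, and AREG in those with day 20. From day 4 to day 9, 1 of the 4 rose and 2 fell, beside the 24.3% and 24.7% of all genes. NRG2, a neuregulin that binds ERBB3 and ERBB4, had 20, 20 and 13 counts on day 4 and 506, 326 and 1061 on day 9. It rose by 5.32 (SE 0.43) on the log2 scale, 39.9-fold, with an adjusted p of 5.73e-05 in edgeR, and at 22.7, 13.2 and 31.8 TPM it was above NRG1 in all 3 day 9 libraries. NRG3, a neuregulin of the nervous system that binds ERBB4, fell by 2.10 (SE 0.42, adjusted p 0.00434), and TGFA, a ligand of EGFR, fell by 1.01 (SE 0.31, adjusted p 0.0262 in edgeR). NRG2 and NRG3 were called whichever of the 6 libraries was left out, and TGFA in 2 of these 6 fits. NRG2 was 10.9, 6.09 and 8.48 TPM on day 11, a log2 fold change of −1.48 with an adjusted p of 0.0972.

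AREG, which encodes amphiregulin, a ligand of EGFR, had 16 counts or fewer in each library up to day 11 and 202, 100 and 66 counts on day 20. It rose by 3.57 (SE 0.62) from day 11 to day 20 with an adjusted p of 0.0389 in edgeR, and was the 1 of 5 ligands called in that step, where 1.12% of all genes were called higher. The call was lost without day 11 replicate 1 (0.222), 2 (0.139) or 3 (0.165) or day 20 replicate 1 (0.0596), and held without day 20 replicate 2 (0.0345) or 3 (0.0453). From day 0 to day 20, 3 of 5 were higher and 0 lower, beside 16.1% and 11.3% of all genes: AREG (1, 3 and 1 counts on day 0), NRG2 by 3.52 (SE 0.55, adjusted p 0.00315) and EGF by 1.31 (SE 0.28, adjusted p 0.0109). BTC, EREG and EPGN had at most 16 counts in each library but day 20 replicate 2, which had 56, 57 and 34.

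The 9 genes of ligand processing and partners include the sheddases that cut the precursors. From day 4 to day 9, 5 of 9 rose, where 24.3% of all genes did, and 2 fell, where 24.7% did. Leaving out 1 library in turn gave 3 or 4 higher and 2 or 3 lower. The smallest of the 5 increases was called in 0 of these 6 fits. ADAM12, a protease that can cut the HBEGF precursor, rose by 4.44 (SE 0.33, adjusted p 3.13e-05 in edgeR), ADAM19 by 2.05 (SE 0.28) and BACE1, a protease that can cut NRG1, by 1.71 (SE 0.16). CD9, a membrane protein that associates with the HBEGF precursor, fell by 3.48 (SE 0.31), and RHBDF2, which guides ADAM17 to the cell surface, by 1.32 (SE 0.15). ADAM17 itself was at a mean of 64.6 TPM on day 4 and 54.3 TPM on day 9 and was not called. On day 20, 3 of the 9 were higher (ADAM12, ADAM9 and BACE1) and 2 lower (CD9 and RHBDF2) than on day 0, beside 16.1% and 11.3% of all genes. Without day 20 replicate 2 these counts were 4 and 2. Without any other single library 1 to 3 were higher and 0 to 2 lower.

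Of the 6 genes that restrain or turn over the receptors, 2 rose and 2 fell from day 4 to day 9, beside 24.3% and 24.7% of all genes. ERRFI1, an inhibitor of the kinases of EGFR and ERBB2, rose by 2.13 (SE 0.20, adjusted p 7.18e-05 in edgeR), and LRIG1, which promotes the degradation of ERBB receptors, fell by 3.12 (SE 0.40, adjusted p 0.000536). CBLB rose by 0.56 (SE 0.16) and CBL, a ubiquitin ligase of EGFR, fell by 0.89 (SE 0.13). On day 20, 2 of the 6 were lower (LRIG1 and CBL) and 0 higher than on day 0, beside 11.3% and 16.1% of all genes. Without day 20 replicate 2, 1 was higher. Without any other single library 0 were higher and 1 or 2 lower.

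Of 22 genes of adaptors, relay proteins and chaperones around the receptors, 7 rose and 4 fell from day 4 to day 9, close to the 24.3% and 24.7% of all genes. Most of these changes were small: PIK3R1, a regulatory subunit of PI3 kinase, rose by 2.00 (SE 0.18, adjusted p 6.77e-05 in edgeR), but the next were MAPK3 at 0.78 (SE 0.15) and AKT1 at 0.63 (SE 0.11), and the strongest fall was that of STAT5A by 0.61 (SE 0.18). Leaving out 1 library of days 4 and 9 in turn gave 4 to 7 higher and 1 to 3 lower. On day 20, 3 of 22 were higher (PIK3R1, GAB1 and PIK3CA) and 0 lower than on day 0, beside 16.1% and 11.3% of all genes. Without day 20 replicate 2 these counts were 6 and 3, and without any other single library 2 and 0.

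The 14 genes known to respond to ERK signalling, which also lies downstream of other receptors, were counted in the same way. From day 4 to day 9, 8 rose and 2 fell, beside 24.3% and 24.7% of all genes, with a median log2 fold change of 1.20 against 0.01 over all genes. DUSP6, a phosphatase that switches ERK off, rose by 4.86 (SE 0.49, adjusted p 0.000192 in edgeR), DUSP5 by 3.29 (SE 0.23) and SPRY2 by 2.82 (SE 0.26). ETV4 fell by 1.397 (SE 0.20) and EGR1 by 0.95 (SE 0.21). From day 11 to day 20, 0 rose and 3 fell, where 0.435% of all genes were called lower, with a median of −1.05 against 0.07. DUSP6 fell by 3.78 (SE 0.31, adjusted p 0.0124 in edgeR), SPRY4 by 2.26 (SE 0.43, adjusted p 0.0487) and DUSP4 by 1.78 (SE 0.32, adjusted p 0.0422), and each call depended on single libraries. DUSP6 was lost without day 11 replicate 1 (0.0822), 2 (0.0734) or 3 (0.0984) and held without any 1 day 20 library, DUSP4 held without day 20 replicate 3 (0.0279) and in no other of these 6 fits, and SPRY4 was lost in all 6 (0.0527 to 0.199). From day 0 to day 20, 2 of 14 were higher and 1 lower, close to the 16.1% and 11.3% of all genes. Without day 20 replicate 2 these counts were 5 and 0. Without any other single library 1 to 5 were higher and 0 to 2 lower.

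Between days 0 and 4, 0 genes of the 5 lists and 0% of all genes were called. Between days 9 and 11 the 1 call in the lists was TGFA, where 1.39% of all genes were called higher and 1% lower. TGFA fell by 1.49 (SE 0.29, adjusted p 0.0466 in edgeR), a call that was lost whichever of the 6 libraries was left out (0.0649 to 0.180). From day 11 to day 20, 0 genes of the processing, restraint and relay lists were called, where 1.12% of all genes were higher and 0.435% lower. Each list call named above was also refitted without each of its 6 libraries in turn. Of those from day 4 to day 9, CBLB and STAT5A were called in 3 of the 6 fits, at adjusted p-values of up to 0.0758 and 0.0769, and TGFA as given, while the other named genes were called in all 6. Of those against day 0, AREG, NRG2, ADAM12, LRIG1, GAB1 and PIK3R1 were called in all 6 fits, ADAM9 in 5, EGF and RHBDF2 in 4, BACE1 in 3, CD9 and CBL in 2 and PIK3CA in 1.

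**Figure D5:**
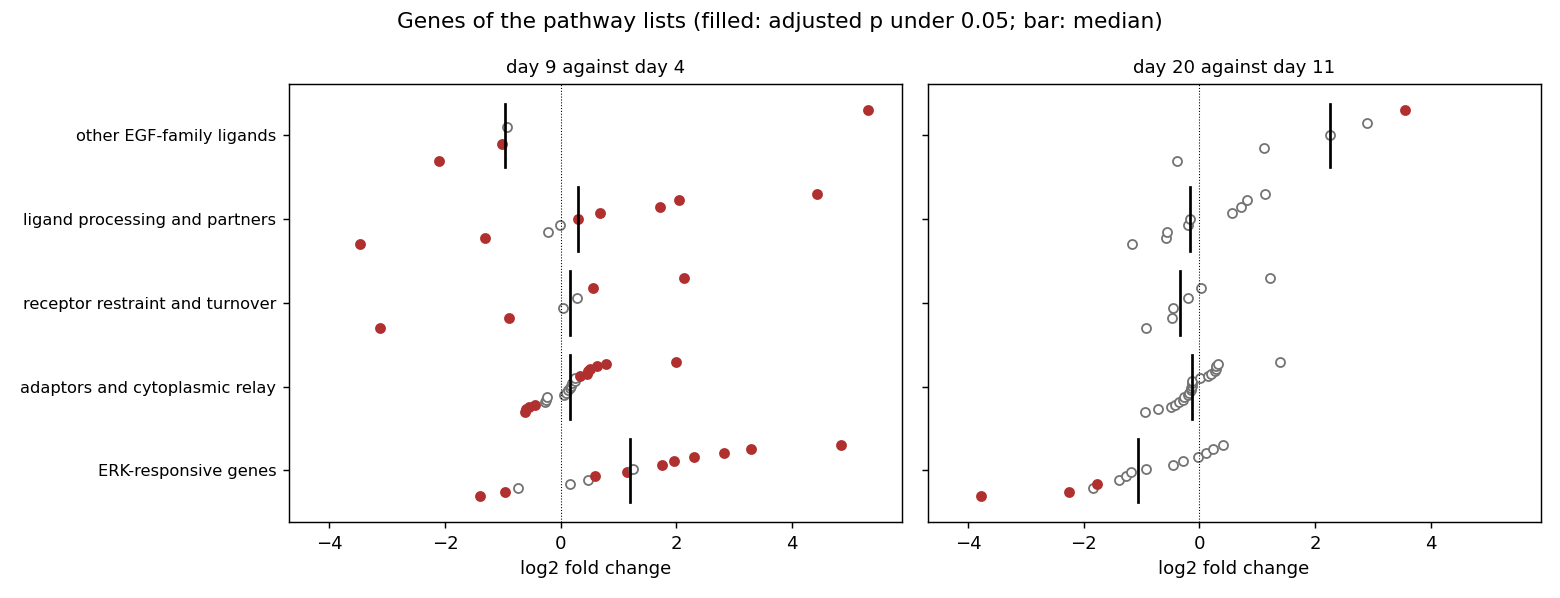
Log2 fold change of each tested gene of the 5 lists around the ERBB receptors from day 4 to day 9 (left) and from day 11 to day 20 (right), with 1 point per gene, filled where the adjusted p was under 0.05, and a bar at the median of the list. The ERK-responsive genes have a median of 1.20 on the left and −1.05 on the right.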

How the data were processed

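Reads were aligned by the authors with STAR 2.5.2b against GRCh38, annotated with Ensembl release 79, and assigned to genes with featureCounts 1.5.1. rRNA and mitochondrial genes were dropped, and raw counts were deposited. TPM were derived by the authors from these counts, and the length used is not given in the sources used here. From the deposited sample table came the RNA integrity score, the fraction of reads mapped uniquely, and the sequencing lane as another label.

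For each comparison the counts of 6 libraries were fitted in R 4.3.3 with edgeR 4.0.16. Low genes were removed with filterByExpr (count minimum 10, total minimum 15), TMM factors were applied, and the quasi-likelihood test was run in its robust form without covariates. The any-day test was the quasi-likelihood F test over all 15 libraries. Tests were two-sided. The SE printed is the absolute log2 fold change over the root of its F statistic. Depth (11990302 to 33469703 counts) and replicate spread set this error. P-values measure the spread between the 3 libraries of a day, called biological replicates in the labels. Day 20 replicates 1 and 2 both carry plate number 2 in their names, and how separate their cultures were is not stated. The scripts were tested on simulated counts with the same dispersion for every gene and only large planted changes. That test does not cover outlying libraries or small changes.

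Alternatives were DESeq2 1.42.0, upper-quartile or library-size scaling, no filter, a mean of at least 1 CPM, all 15 libraries in one fit, limma 3.58.1 on log2(TPM + 1) or log2(TPM + 0.1), a threshold of 0.01, a log2 fold change of at least 1, plate or lane as a block, each replicate left out, and TPM without the gene that takes most of it. The fits of pathway genes and lists without single libraries, and the endothelial sum without TEK, were added after seeing the data. Members and lists were chosen with earlier results of these data known. All members are named, with at most the 3 largest called increases and 3 largest called decreases per list and comparison, defining markers, and the 3 protein-coding genes (mean of at least 5 CPM) most correlated with each member. ADAM17, NRG2 on day 11 and the low ligands were named after their values were seen. Positions and exon lengths come from GENCODE v44 (46872 of 48777 gene IDs matched). Silent genes were autosomal protein-coding genes with at least 2000 exon bases and at most 2 counts in sum over the libraries of days 0 to 11. Promoters were read with Python 3.11.15 from RefSeq. The single-cell libraries of the study were not analysed here.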

Additional observations from a re-analysis of the deposited data

How the results depend on the processing

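ERBB4 and ERBB2 from day 4 to day 9, and ERBB4 and HBEGF from day 0 to day 20, kept their direction and passed the threshold under every alternative run. Other calls did not. From day 4 to day 9, where 5 members were called, 2 were with all 15 libraries in one fit (6209 of all genes, against 10406), 3 by limma on log2(TPM + 1) or log2(TPM + 0.1), 2 at an adjusted p under 0.01 and 3 at a log2 fold change of at least 1 (6046 genes). From day 9 to day 11, where 0 members were called among 495 genes, DESeq2 called 2 (of 1674 genes) and the fit with no filter 1 (of 1016). From day 11 to day 20, where 1 member was called among 332 genes, DESeq2 called 3 (of 1871), all 15 libraries in one fit 2 (of 3132), and upper-quartile scaling, library size alone, a mean of at least 1 CPM and the 0.01 threshold 0. From day 0 to day 20, where 4 were called, 2 were with no filter and 2 at the 0.01 threshold (2852 genes, against 6027), and 10785 genes were called with all 15 libraries in one fit. Between days 0 and 4 the fit with no filter called 64 genes and 0 members. Leaving out 1 replicate in turn gave 2 to 4 members from day 4 to day 9, 0 to 1 from day 11 to day 20, 2 to 5 from day 0 to day 20 and 5 to 7 over the 5 days. Of all genes, 0 were called from day 9 to day 11 without day 9 replicate 1, 37 without its replicate 3, 133 without day 11 replicate 1 and 288 without its replicate 3; from day 11 to day 20, 0, 1 and 0 without day 11 replicate 1, 2 or 3, 94 without day 20 replicate 1 and 510 without its replicate 2; and from day 0 to day 20, 3497, 3216 and 3128 without day 0 replicate 1, 2 or 3. The causes were not tested.

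Over single members, only changes that did not pass the threshold turned their sign. Leaving out 1 replicate gave log2 fold changes from −0.017 to 0.46 for NRG1, −0.34 to 0.12 for ERBB2 and −0.13 to 0.22 for HBEGF from day 0 to day 4, −0.41 to 0.20 for NRG4 from day 4 to day 9, −0.81 to 0.29 for NRG1 from day 9 to day 11, and −0.41 to 0.48 for NRG1, −0.10 to 0.48 for ERBB2 and −0.77 to 0.11 for ERBB3 from day 11 to day 20. NRG1 was also at 0.011 from day 9 to day 11 by limma on log2(TPM + 0.1), and at −0.066 from day 11 to day 20 with no filter.

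Plate numbers in the sample names and lanes of the sample table are shared between days, but nothing states that they pair the cultures. Plate number 2 is also shared within day 20, by replicates 1 and 2. Deviations of libraries with the same plate number correlated across genes at 0.14 and 0.36 between days 9 and 11 and at −0.17, −0.01 and 0.37 between days 11 and 20, and those of the same lane at −0.47 to 0.36. With plate as a replicate block, 1 member of 1971 called genes passed from day 9 to day 11 and 0 of 3 from day 11 to day 20, with NRG1 at 0.24 and −0.10. With lane as a replicate block, 3 members passed from day 4 to day 9, 2 from day 9 to day 11 and 0 from day 11 to day 20 (137 genes), with NRG1 at −0.075 in the last. Upper-quartile scaling moved the median log2 fold change of all genes by 0.11 from day 11 to day 20, and library size alone by 0.12 from day 0 to day 20. With 3 libraries per day and at most 20 counts of NRG4 in every library up to day 11, small changes of the low members could not be resolved.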
